A study of Mus musculus with 22 samples.

Results

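The miR-140 hairpin gave 2 mature miRNAs, mmu-miR-140-5p from its left side and mmu-miR-140-3p from its right side, and these were the 2 of the 1966 mature names in the miRNA-seq count table that were taken as the members. They were chosen by name, with their lower counts in both mutant genotypes already known, so their KO and KI values are given as a description with no test. Round spermatids (RS), the first haploid cells after meiosis, were the source of all libraries and came from testes of mice aged 75 to 85 days. Batch 1 held 5 WT and 5 GRTH-KO samples, and batch 2 held 6 WT and 6 GRTH-KI samples. KO mice lack GRTH/DDX25, a testis-specific RNA helicase. KI mice, per the paper, carry the human GRTH gene with an arginine-to-histidine change, and they lack phosphorylated GRTH. In both mutants spermiogenesis stops at the RS stage. Ddx25, the gene that encodes GRTH, gives no miRNA, so the genotypes were not checked on it here. KO and KI were never sequenced in the same batch, and each was compared with the WT samples of its own batch.

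A miRNA hairpin is cut by Drosha in the nucleus and by Dicer in the cytoplasm into a short duplex, and 1 or both strands are kept in an Argonaute protein. The strand from the left side of the hairpin is named 5p and the strand from the right side 3p, and bases 2 to 8 of the strand, the seed, do most of the target recognition. miR-140 is best known from cartilage, where it supports chondrocyte development, and its host gene Wwp2 encodes a HECT-type E3 ubiquitin ligase. The 3p strand is known to occur with more than 1 start base in other tissues, and counts per mature name do not separate such forms.

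Both arms had a single locus on the plus strand of chromosome 8 (GRCm38). miR-140-5p lay at chr8:107551249-107551270 and miR-140-3p at chr8:107551288-107551308. Both lay inside Wwp2, at chr8:107436365-107558595 on the same strand, and in no exon of its protein-coding transcripts. The only annotated Wwp2 exon over them belonged to a retained-intron transcript. The 3p strand is shown with miR-497b, the only other name with a RefSeq sequence that shared its seed. The 5 names whose pattern over the libraries was most like that of the arms are shown as well. RefSeq held no sequence for miR-140-5p, so its seed was not looked for. Sequences are from RefSeq (GRCm38.p6), written 5′ to 3′, with the seed in capitals.

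miR-140-3p: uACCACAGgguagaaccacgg

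miR-497b: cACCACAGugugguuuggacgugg

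miR-741-3p: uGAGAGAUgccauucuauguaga

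miR-138-5p: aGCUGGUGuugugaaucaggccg

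miR-465a-3p, miR-465b-3p and miR-465c-3p: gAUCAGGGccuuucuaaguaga

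The ACCACAG seed of miR-140-3p was looked for among the 1675 names with a RefSeq sequence. miR-497b had 10 counts over all 22 libraries, at most 3 in 1 library and none in 16, and it was too low to be tested. Going by the annotated sequences, miR-140-3p, with 24312 counts, held almost all counts of the names with this seed. Reads with another start base were not separated, so counts of the seed itself were not measured. miR-140-5p had 4823 counts over the same libraries, and both arms were counted in every library.

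Total counts were 559957 to 1081333 per library in batch 1 and 2067322 to 3239357 in batch 2. Single libraries held 92 to 390 counts of miR-140-5p and 198 to 2814 of miR-140-3p, so counting error alone was at most 10.4% of a 5p value and 7.11% of a 3p value. Levels are CPM, counts brought to the same library size with TMM factors over all 22 libraries. In WT of batch 1 the 5p arm ranked 125 and the 3p arm 96 among the 844 names with counts, by mean CPM. In WT of batch 2 the ranks were 174 and 90 among 942 names.

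The level of miR-140-5p in KO RS was less than 0.5 of that in WT. Its levels in the 5 WT libraries of batch 1 were 265, 284, 327, 271 and 359 CPM, with a mean of 301 ± 40.3 (SD, n = 5). In the 5 KO libraries they were 118, 90.4, 124, 151 and 130 CPM, with a mean of 123 ± 21.8 (SD, n = 5). The highest KO library lay below the lowest WT library, and the groups did not overlap. Of all 334 miRNAs tested in this comparison, 12% were lower in KO without overlap, a share from which nothing is read for the arms because they were chosen on this contrast. The log2 fold change of miR-140-5p was -1.28 (SE 0.14), the lowest of the 334.

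miR-140-3p, the more abundant strand, was also lower in KO. The WT libraries of batch 1 held 562, 647, 710, 614 and 818 CPM, with a mean of 670 ± 98.6 (SD, n = 5). The KO libraries held 309, 292, 277, 284 and 311 CPM, with a mean of 294 ± 15.1 (SD, n = 5). The groups again did not overlap, and the KO libraries lay closer together than the WT libraries. The log2 fold change was -1.16 (SE 0.10), and 2 of the 334, miR-140-5p among them, were lower. With both arms added, the hairpin gave 971 ± 138 CPM (SD, n = 5) in WT and 417 ± 24.8 CPM (SD, n = 5) in KO.

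**Figure D1:**
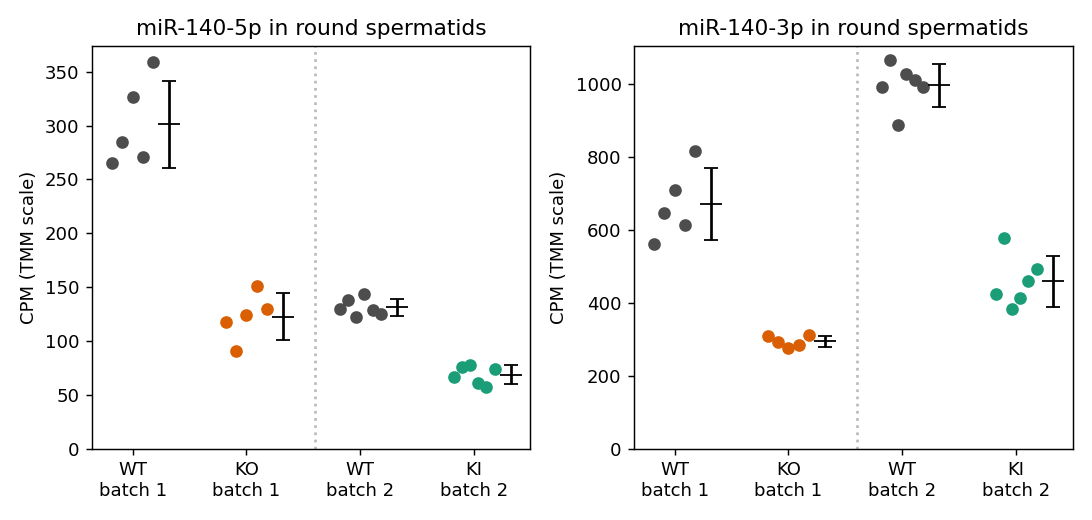
Level of miR-140-5p (left) and miR-140-3p (right) in each RS library, in CPM on the TMM scale on axes that start at 0, with 1 point per library and the mean and SD beside each group (n = 5 in batch 1, n = 6 in batch 2). In both panels the KO and KI libraries lie below all WT libraries of their batch, while WT of batch 2 lies below WT of batch 1 for the 5p arm and above it for the 3p arm.

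In KI RS the arms were lower than in the WT of batch 2 as well. The 5p arm ranged from 122 to 144 CPM in WT with a median of 129, and from 56.8 to 77.9 CPM in KI with a median of 70.3. The group means were 131 ± 8.13 CPM (SD, n = 6) and 68.7 ± 8.54 CPM (SD, n = 6), and the groups did not overlap. The log2 fold change of miR-140-5p was -0.91 (SE 0.09), the 7th lowest of 387 miRNAs tested. Of these 387, 8.79% were lower in KI without overlap, which again is only the background of a contrast the choice had used.

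The 3p arm ranged from 889 to 1066 CPM in WT of batch 2 with a median of 1002, and from 384 to 578 CPM in KI with a median of 442. The means were 997 ± 59.2 CPM (SD, n = 6) in WT and 459 ± 69.4 CPM (SD, n = 6) in KI, without overlap. Its log2 fold change was -1.10 (SE 0.10), the 5th lowest. Both arms together gave 1128 ± 65.6 CPM (SD, n = 6) in WT and 528 ± 72.0 CPM (SD, n = 6) in KI. In bulk RS preparations, fewer cells that hold a miRNA and less of it per cell cannot be told apart.

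**Figure D2:**
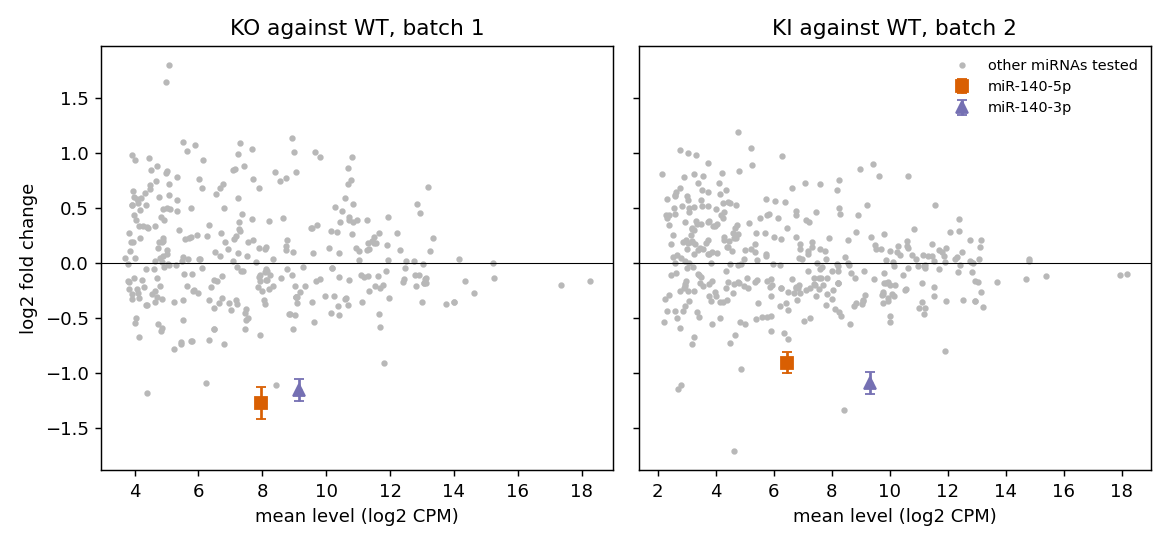
Log2 fold change against mean level (log2 CPM) for every miRNA tested in KO against WT of batch 1 (334, left) and in KI against WT of batch 2 (387, right), with miR-140-5p as a square and miR-140-3p as a triangle (bars, SE). Both arms lie at the lower edge of the cloud in both panels, at -1.28 and -1.16 in KO and at -0.91 and -1.10 in KI.

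The 4 groups can be ordered by level within this scaling. For miR-140-5p, WT of batch 1 was highest, WT of batch 2 and KO came next and overlapped, and KI was lowest. For miR-140-3p the order was WT of batch 2, WT of batch 1, KI and KO, and only WT of batch 1 and KI overlapped among neighbours, where the highest KI library (578 CPM) lay above the lowest WT library (562 CPM). In the order of the summed arms, the WT groups of the 2 batches overlapped, while KI lay above KO without overlap. Orders that cross the batches depend on the scaling. The KO log2 fold change minus the KI log2 fold change was -0.37 (SE 0.17) for the 5p arm and -0.07 (SE 0.14) for the 3p arm. The sign of the 3p value changed when the KI library of replicate 2 or the WT library of replicate 5 in batch 1 was left out, to 0.0056 and 0.031, and with the germ cell list scaling, to 0.016.

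The balance between the arms, measured as the 5p share of the summed miR-140 counts in a library, does not depend on library scaling. In WT of batch 1 the share was 32.1%, 30.5%, 31.5%, 30.6% and 30.5%, with a mean of 31.0% ± 0.716 (SD, n = 5). The exact Clopper-Pearson 95% intervals of these libraries reached from 27.6% to 35.4%, and intervals of this kind cover counting error only. The WT libraries differed by less than counting error gives, with a chi-square per degree of freedom of 0.229. The 3p arm was 2.22 ± 0.0735 times as abundant as the 5p arm (SD, n = 5).

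KO libraries had 5p shares of 27.6%, 23.7%, 30.9%, 34.7% and 29.5%, with a mean of 29.3% ± 4.06 (SD, n = 5). Their lowest share had an interval of 19.7% to 28% and their highest one of 29.3% to 40.3%. KO shares lay on both sides of the WT shares and overlapped with them. They were also more spread than counting error gives, with a chi-square per degree of freedom of 2.93 and an SD expected from counting of 2.42 percentage points. Without replicate 2, the lowest, the chi-square value was 1.38, and without replicate 4, the highest, it was 1.96. The mean share differed by -1.78 percentage points in KO, by -0.384 without replicate 2 and by -3.13 without replicate 4, while the level of each arm changed by more than 50%.

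In WT of batch 2 the 5p share was much smaller. It ranged from 11.2% (interval 9.99% to 12.4%) to 12.3% (11% to 13.6%), with a median of 11.5% and a mean of 11.6% ± 0.438 (SD, n = 6). KI libraries ranged from 11% (9.15% to 13.1%) to 16.8% (14.7% to 19.1%), with a median of 13% and a mean of 13.2% ± 2.05 (SD, n = 6). KI and WT overlapped, and the KI mean was higher by 1.52 percentage points. The highest KI library, replicate 3, was the only one whose interval lay wholly above the shares of all 6 WT libraries. The KI shares were more spread than counting error gives (chi-square per degree of freedom 4.24), and the WT shares were not (0.488). The KI value rested on replicate 3, and without that library it was 1.25, with an SD of 1.07 percentage points and a KI mean higher than WT by 0.786. Each mutant therefore had a share near that of its own batch, about 30% in batch 1 and under 17% in batch 2.

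**Figure D3:**
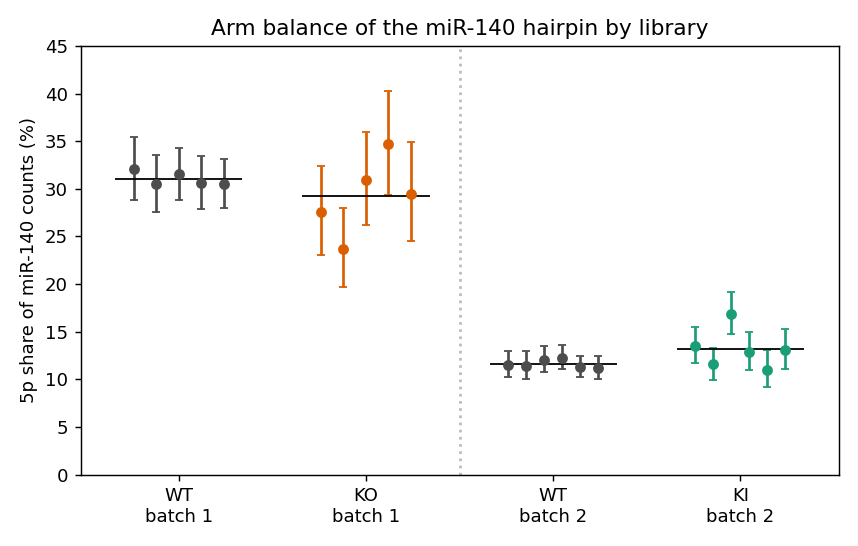
The 5p share of all miR-140 counts in each library (percent, axis from 0), with exact 95% binomial intervals as bars and a horizontal line at each group mean. The shares separate by batch (means of 31.0% and 29.3% in batch 1, 11.6% and 13.2% in batch 2), and WT and mutant overlap within each batch.

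The difference in arm balance between the WT groups of the 2 batches was not used to choose the members, and it was tested. The 5p share was lower by 19.4 percentage points in batch 2, with an exact two-sided permutation p of 0.004329, the smallest that the 462 possible splits of 5 and 6 samples can give, and it was lower in 6 of 6 batch 2 libraries than in every batch 1 library. In the fit of the WT libraries with edgeR's quasi-likelihood test, miR-140-5p was lower in batch 2 by a log2 fold change of -1.26 (SE 0.11, adjusted p = 1.42e-07). miR-140-3p was higher by 0.52 (SE 0.10, adjusted p = 4.03e-04), but with scaling on the germ cell list it was lower, at -0.25 (adjusted p = 0.0232), and by library size alone the value was 0.19 (adjusted p = 0.0633).

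Of the 383 miRNAs tested between the WT groups, 56.7% passed an adjusted p of 0.1, 29.8% lower and 26.9% higher in batch 2, and 37.9% did not overlap in either direction. A call for an arm in this comparison is thus shared by most miRNAs. The split into 103 higher and 114 lower became 47 and 193 by library size alone and 22 and 303 with the germ cell list scaling, under which the middle value of all log2 fold changes moved from -0.01 to -0.34 and -0.78. Relative to that median, the 3p arm was higher by 0.53 under each of these scalings. This was fixed in advance, since a change of scaling moves all log2 fold changes by nearly the same amount. RNA input, library making, depth and every other difference between the batches cannot be told apart here.

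Hairpins with 1 annotated locus per arm and both arms tested were used to compare arms. Some arms share their sequence with other names, as miR-465a-3p does, so their counts can pool several precursors. miR-297b-3p and miR-297c-3p had the same KO value (-0.61), so not all hairpins counted are independent. Between the WT groups, 91 hairpins with 1 annotated locus per arm were measured. The 5p fold minus the 3p fold (log2) had a median size of 0.71. For miR-140 it was -1.77, the 9th largest in size. At the same threshold 19 of the 91 hairpins had arms called in opposite directions, 10 had both called lower and 8 both higher. By library size alone 16 were opposite, 23 both lower and 1 both higher, and with the germ cell list scaling 8 were opposite, 63 both lower and 0 both higher. The 19 included miR-34b and miR-34c, the germ cell miRNAs that rise at meiosis, and miR-140 was among them.

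Within the batches the arms of a hairpin moved more alike. In KO against WT, 75 hairpins were measured, and the difference between arms had a median size of 0.24. It was -0.12 for miR-140, which ranked 60 by size. Both arms were called lower in 8 hairpins and higher in 12, which became 4 and 21 by library size alone and 1 and 23 with the germ cell list scaling. In KO, 0 hairpins had arms called in opposite directions by edgeR, with 0 at an unadjusted p of 0.05 and 0 by DESeq2, but 2 by library size alone and 1 with the germ cell list scaling. In KI against WT, 91 hairpins had a median size of 0.20, and miR-140, at 0.18, ranked 49. There 9 hairpins had both arms called lower and 8 both higher, which became 5 and 12 by library size alone and 6 and 13 with the germ cell list scaling, with 0 in opposite directions by edgeR, at an unadjusted p of 0.05, by DESeq2 and under both other scalings.

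miR-140 was the hairpin whose smaller fall was the largest in both comparisons, a description since both arms were chosen on them. The other hairpins with both arms lower in KO were miR-22, miR-743b, miR-471, miR-741, miR-881, miR-470 and miR-465a, of which miR-22, miR-470 and miR-465a were still called by library size alone and none with the germ cell list scaling. In KI they were miR-3068, miR-202, miR-743b, miR-883a, miR-883b, miR-463, miR-878 and miR-465a. Of these, miR-202, miR-3068, miR-465a and miR-878 were still called by library size alone, and the same names with miR-463 under the germ cell list scaling. Several of these, such as miR-741 and miR-465a, belong to a cluster of testis miRNAs on the X chromosome. These hairpins were named after their values had been seen.

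**Figure D4:**
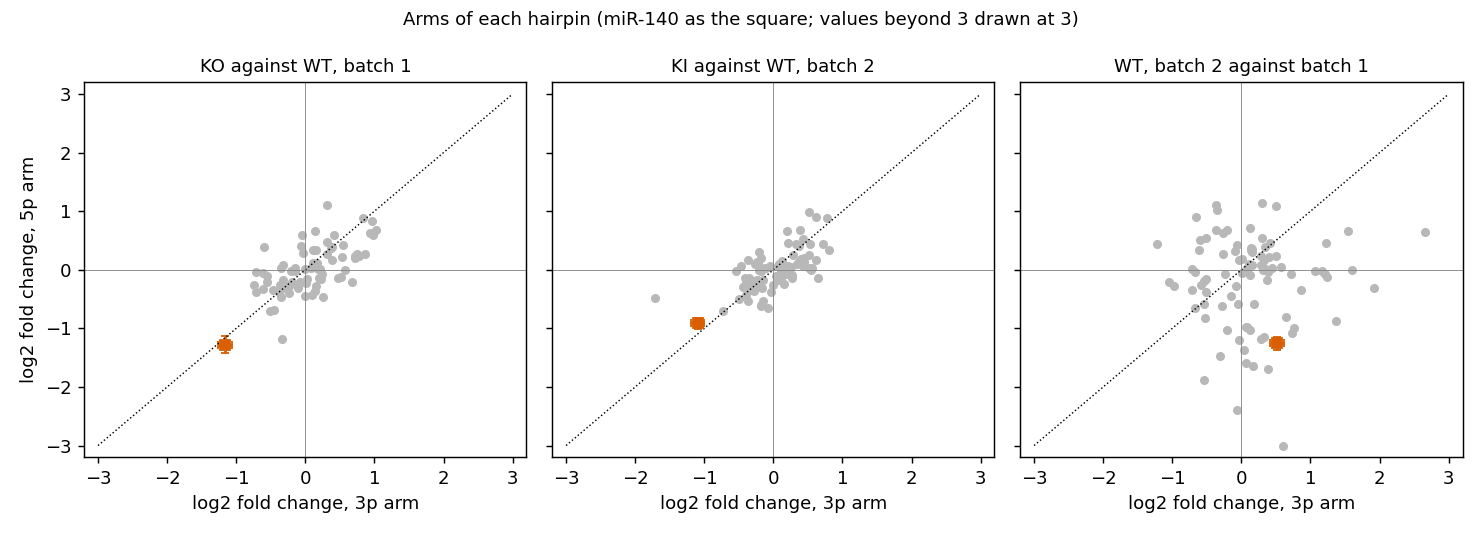
Log2 fold change of the 5p arm against that of the 3p arm for each hairpin with both arms tested, in KO against WT (75 hairpins), KI against WT (91) and WT of batch 2 against batch 1 (91, where 1 hairpin beyond 3 is drawn at 3). miR-140 (square, bars SE) lies near the dotted line of equal change at the lower left in KO and KI, and off it in the comparison of batches, with arm differences of -0.12, 0.18 and -1.77.

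The names most like miR-140 were sought among 328 names with a mean of at least 10 CPM, by Pearson's r with the mean of both arms on log2(CPM + 1) over 22 libraries, centred within each batch. The r was 0.960 for miR-741-3p, 0.954 for miR-138-5p and 0.950 to 0.951 for miR-465a-3p, miR-465b-3p and miR-465c-3p. The libraries share genotype as well as batch. With each genotype group centred instead, r was 0.527, 0.647 and 0.378 to 0.382, and for the 5p arm with the 3p arm it was 0.400, against 0.946 with centring by batch. The 3 miR-465 names share 1 mature sequence, so their counts come from the same reads and are not separate evidence.

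miR-138-5p, at chr8:94324312-94324334 and at 1 further locus on chromosome 9, had the most similar size of change. Its KO value was -1.11 on the log2 scale (SE 0.19), and its KI value was -1.34 (SE 0.09). miR-741-3p, on the X chromosome, changed less, by -0.38 in KO (SE 0.06) and by -0.41 in KI (SE 0.04). The miR-465 names changed by -0.36 in KO and by -0.34 to -0.35 in KI. All these names were picked on a pattern that holds the KO and KI changes, so their values are a description with no test. None of these shared the seed of miR-140-3p, as the lines above show.

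Few other names of chromosome 8 were tested. Of 90 names with all their loci on chromosome 8, 5 were tested in KO, and 3 were called higher and 0 lower, also at an unadjusted p of 0.05 and by DESeq2. Over all miRNAs tested in KO, 21.3% were called higher and 20.7% lower, so 0 lower among 5 is near the background. The 3 were miR-23a-3p, miR-328-3p and miR-328-5p, at 1.09, 0.99 and 0.59. In KI 6 were tested, and 4 were called higher (miR-23a-3p, miR-181c-3p, miR-181d-5p and miR-8108) and 0 lower, with 0 lower again at an unadjusted p of 0.05 and by DESeq2. The background in KI was 18.1% higher and 19.9% lower. A further 3 names had some of their loci on chromosome 8, and of these miR-138-5p was called lower and miR-24-3p higher in both comparisons (0.40 in KO, 0.32 in KI), while miR-3074-5p was not called. These names too were added after their values had been seen.

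Of 1188 names that lie in a protein-coding host gene on its strand, 139 were tested in KO, and 33 (23.7%) were called lower against 20.7% of all miRNAs tested. In KI 33 of 161 (20.5%) were called lower against 19.9%. Lower calls among these names were close to the background. Higher calls were made for 11 of 139 (7.91%) in KO, against 21.3% of all, and for 21 of 161 (13%) in KI, against 18.1%. The level of Wwp2 mRNA was not analysed here.

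A further list held the miRNAs that the study names as lower in both mutants, without miR-140. They were picked on these samples, so their direction is not independent evidence. Of the 8 names on it, 5 were tested in KO and 4 were called lower, against 20.7% of all miRNAs tested. In KI 6 were tested and 5 were called lower, against 19.9% of all. miR-32-5p fell by 1.09 on the log2 scale in KO (SE 0.15, adjusted p = 5.44e-04), and by 0.43 in KI (SE 0.17, adjusted p = 0.07). miR-1981-5p fell by 0.71 in KO (SE 0.24, adjusted p = 0.0415) and by 0.97 in KI (SE 0.20, adjusted p = 0.00269). miR-202-5p, a gonadal miRNA, was at -0.71 in KO (adjusted p = 0.104, which does not pass) and fell by 0.70 in KI (adjusted p = 0.00393). With the germ cell list scaling 1 of 5 was called lower in KO and 4 of 6 in KI. The list held 5p arms, of which miR-184-5p, miR-880-5p and miR-141-5p had only 37, 33 and 202 counts over all libraries. Of their 3p arms, miR-880-3p (-0.58 in KO, -0.41 in KI) and miR-141-3p (-0.74 and -0.30) were called lower in both. miR-184-3p was called lower in KO, at -0.91, and not in KI, at -0.35. These 3p arms were added after their values had been seen.

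The cell type of the libraries was checked on marker lists. The 7 miRNAs of meiotic and haploid germ cells (the miR-34b, miR-34c and miR-449 products) summed to 195299 to 238696 CPM in WT and 170097 to 225089 in KO of batch 1, and to 365323 to 420234 in WT and 338355 to 386906 in KI of batch 2. WT and mutant overlapped in both batches. Most counts of the list were of miR-34c-5p, with 9128031 over all libraries, against 1526347 for miR-34b-5p, the next most counted member. Of 6 members tested, 2 were called lower in KO (miR-34b-5p at -0.27 and miR-34c-5p at -0.21) and 1 higher (miR-449c-5p at 0.82). In KI only miR-34c-5p was called, at -0.11. Over all miRNAs tested, 20.7% were called lower and 21.3% higher in KO, and 19.9% and 18.1% in KI. The counts among the 6 are near that background. No member was called lower by library size alone or with the scaling on this list, where 2 were higher in KO. With libraries scaled on this list, where its sum is held even, the arms were at -1.10 (SE 0.15) for 5p and -0.98 (SE 0.12) for 3p in KO, and at -0.82 (SE 0.09) and -0.99 (SE 0.11) in KI.

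Some markers of other testis cells were called higher in the mutants. The list for vessel and stroma had 4 of 5 tested members called higher in KO and 4 of 5 in KI. Over all miRNAs tested, 21.3% were called higher in KO and 18.1% in KI. Among the 4 was miR-199a-5p, at 1.01 in KO (adjusted p = 0.013) and 0.85 in KI (adjusted p = 0.00907). In this list miR-126a-3p was not called, at 0.38 in KO and -0.04 in KI. The summed level of the list was 773 to 2135 CPM in WT and 1946 to 4046 in KO, and 1421 to 2360 CPM in WT and 2210 to 4950 in KI. The list for blood and immune cells had 3 of 6 called higher in KO and 5 of 6 in KI, among them miR-155-5p at 0.85 (adjusted p = 5.44e-04) and 0.56 (adjusted p = 5.97e-04), while miR-142a-3p and miR-142a-5p, at 0.11 and 0.12, and miR-451a, at -0.25, were not called in KO. The sums of the list were 4121 to 5184 CPM in WT and 4476 to 6268 in KO, and 2993 to 4013 CPM in WT and 3731 to 5983 in KI. In both lists 0 members were called lower in KO or KI by edgeR, at an unadjusted p of 0.05 or by DESeq2. By edgeR 20.7% of all miRNAs tested were called lower in KO and 19.9% in KI. Within these lists miR-144-3p had 1 count in all. The part of such cells in the lower miR-140 levels was not tested. The scaling on germ cell markers, which mostly follows miR-34c-5p, is not such a test.

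The spermatogonial list had 1 of 2 tested members called higher in KO (miR-221-3p at 0.95, adjusted p = 0.0892), where miR-21a-5p was at -0.12 and not called. In KI 0 were called, but both were called higher by library size alone and with the germ cell list scaling. Over all miRNAs tested, 21.3% were called higher in KO and 18.1% in KI. Nothing is read from the counts among the few tested names of this list and the striated muscle list. Its summed level was 1729 to 2650 CPM in batch 1 and 5767 to 7707 in batch 2. In the striated muscle list 1 member was tested in KO and called higher (miR-1a-3p at 1.79, adjusted p = 0.0417), and none of 3 was called in KI at an adjusted or unadjusted p or by DESeq2. Its sums ran from 13.8 to 153 CPM in batch 1 and from 48.9 to 769 in batch 2, and 2 of its names (miR-133b-3p, miR-206-3p) were not counted in any library.

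Markers of cartilage, the tissue miR-140 is best known from, were low. miR-675-5p and miR-675-3p had 1 count each over the 22 libraries and miR-455-3p had 21. miR-455-5p had 394 and was counted in all 22 libraries. The 4 names of the list summed to 5.58 to 21.5 CPM in any library. The only member tested was miR-455-5p, which was called higher in KI, at 0.72 (SE 0.25, adjusted p = 0.0442), as were 18.1% of all miRNAs tested. Both miR-140 arms were lower there.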

How the data were processed

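Small RNA libraries from RS of WT, KO and KI mice were analysed from the deposited table of counts, which are whole read numbers for each mature name. Per the file headers and the published methods, the authors trimmed adapters with cutadapt 3.4, aligned reads to GRCm38 with Bowtie2 2.4.2 in local mode and counted them by strand on miRBase annotation with featureCounts of Subread 2.0.1. The setting for multi-mapped reads is not given in the sources used here. miR-465a-3p, miR-465b-3p and miR-465c-3p, with the same sequence, had 1, 2 and 2 loci and 189114, 378236 and 377038 counts. Reads that fit more than 1 locus were therefore counted, and they are part of the library totals. Both miR-140 arms have 1 locus each.

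The members and lists were chosen with earlier results of these data known. Groups and batches follow the sample labels. edgeR 4.0.16 (R 4.3.3) was run on the counts with TMM scaling, filterByExpr and quasi-likelihood tests, with Benjamini-Hochberg adjustment over all miRNAs tested and calls where it was under 0.1, as in the study. KO and KI were fitted with the WT samples of their own batch, and genotype as the only term. A fit of all 4 groups gave the difference of the effects. Displayed CPM use 1 TMM scaling over 22 libraries. Shares were compared by exact permutation (scipy 1.17.1). The labels do not say which samples came from separate animals, so p-values measure the spread between these samples. No replicate pair looked like 1 library entered more than once (chi-square per degree of freedom of at least 7.28).

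Names given with values are the arms, names that share the 3p seed, the 5 most alike names and list members behind small counts. The 3p arms of some list names are given as well. Sequences were read from RefSeq, host genes from GENCODE. A count of 3, the smallest amount taken as detectable, equals 0.926 CPM in the deepest and 5.36 CPM in the shallowest library, before TMM. DESeq2 1.42.0, other scalings, no filter, the replicate number as a block and leaving out each library were the alternatives. The scripts were tested on simulated data.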

Additional observations from a re-analysis of the deposited data

How the results depend on the processing

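Of 360 values recomputed under alternatives, 347 kept their direction and their side of the threshold or moved little. Scaling on the germ cell list brought the KO change of miR-140-3p from -1.16 to -0.98, turned its difference between the WT batches from 0.52 to -0.25, and raised the calls among cell type list members between WT batches from 11 to 20. Under the same scaling, chosen after seeing the data, the KO effect minus the KI effect of the 3p arm was 0.016 in place of -0.067. Leaving out each library gave -0.20 to 0.031 for it, with 0.0056 without KI replicate 2 and 0.031 without WT replicate 5 of batch 1, so its sign was not fixed by these libraries. The other leave-one-out ranges kept their sign. They were -1.37 to -1.18 (5p) and -1.22 to -1.09 (3p) in KO, -0.95 to -0.85 and -1.18 to -1.02 in KI, and -19.6 to -19.2 percentage points for the share between WT batches. The share difference ran from -3.13 to -0.384 percentage points in KO and from 0.786 to 1.95 in KI, so its size rested on single libraries. The spread of the shares without each library was computed after seeing the data.

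Between KO and WT, 71 miRNAs were called higher and 69 lower, against 101 and 44 by library size alone and 103 and 19 with the germ cell list scaling, where the median of all miRNAs moved from 0.01 to 0.13 and 0.20. In KI 70 were higher and 77 lower, against 96 and 53, and 97 and 47. Between the WT batches the same changes in scaling moved 103 higher and 114 lower to 47 and 193, and to 22 and 303.

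Whether samples of the same replicate number were paired was not settled by their values. The correlation of their deviations ran from -0.20 to 0.30 in KO (mean 0.05) and from -0.12 to 0.56 in KI (mean 0.20). The share of replicate numbers whose samples correlated best with their own number was 0.4 in KO and 0.5 in KI. A pairing is thus neither shown nor excluded. With the replicate block the arms were at -1.28 and -1.15 in KO (124 calls in place of 140) and at -0.92 and -1.11 in KI (165 in place of 147), and the differences of the effects were -0.37 and -0.05. Depth limits the 5p arm most, with 92 to 111 counts per KO library.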
